A study of Mus musculus with 162 samples.

Results

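Mbp, Mobp, Mag, Mog, Cnp, Cldn11, Mal, Ugt8a and Opalin are genes of the myelin sheath that were chosen by name, and they were followed across brain regions of fasted mice. All 9 were found by symbol among the 53686 genes of the deposited count table. The animals were male C57BL/6J mice of 8 to 9 weeks, and all were killed after the start of the dark phase. The 0 h group was fed ad libitum, and the other groups had been without food for 2, 8, 12, 18 or 22 h, 3 mice for each of the 6 times. Each of the 18 mice gave 9 organs for stranded mRNA sequencing, 162 libraries in all. The 4 brain regions were olfactory bulb (OB), brain (BRN, here telencephalon with diencephalon), cerebellum (CBL) and brainstem (BST, here mesencephalon with pons and myelencephalon). The other organs were stomach (STM), liver (LIV), interscapular brown fat (iBAT), perigonadal white fat (pgWAT) and posterior-subcutaneous white fat (psWAT).

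Myelin in the brain is made by oligodendrocytes, which wrap axons in many layers of their own membrane, press out most of the cytoplasm and so insulate the axon between the nodes. Some of its proteins hold the layers together, some sit on the surface that faces the axon or the outside, and enzymes of the same cells make the glycolipids that the membrane is rich in. White matter tracts fill much of the brainstem, whereas the olfactory bulb holds few, and the genes followed here are widely used as markers of mature oligodendrocytes. A bulk library cannot tell fewer cells of a type from less RNA in each cell, so every level below is that of the whole dissected tissue.

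The values are read counts per gene, and a level is given as CPM, the count per 1000000 counts of the library. The total count ran from 8224940 to 17704828 in OB, from 6487419 to 22071004 in CBL and from 6998492 to 11776354 in BST, with 18 libraries each. In BRN it ran from 3045845 to 12108290 over 16 libraries, since BRN 8 h replicate 3 (130701 counts) and BRN 18 h replicate 1 (279848 counts) were left out for totals more than 2 SD below the mean of the log totals. STM 12 h replicate 3, iBAT 22 h replicate 1 and psWAT 22 h replicate 2 were left out by the same criterion, and 70 libraries of the 4 brain regions were retained.

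The region labels were checked against marker lists, summed per library. Genes of cerebellar neurons summed to 5758 CPM or more in each CBL library and to 612 CPM or less in any library of OB, BRN or BST. Each of 7 brainstem genes was higher in BST than in OB. Their median log2 fold change of 9.88 is not an exact size, since 5 of them had a median of 0 in OB. Each of 8 forebrain genes was higher in BRN than in OB, with a median log2 fold change of 3.18. All 6 olfactory bulb genes were lower in BST than in OB, with a median of −6.37. Some libraries stood apart. BRN 18 h replicate 2 and BRN 12 h replicate 2 had the lowest totals that were retained in BRN (3045845 and 3152641) and the lowest mean rank correlation with the other BRN libraries, 0.892 and 0.915. BST 0 h replicate 2 and BST 2 h replicate 1 held the most of the cerebellar granule cell gene Gabra6 in BST, 65.8 and 34.8 CPM. In the fat depots, psWAT 12 h replicate 3 held 2621 CPM of the neuronal gene Snap25 and 649 CPM of Gabra6, where the other psWAT libraries held at most 102.5 and 1.24 CPM.

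The proteins that hold the layers together come first. Mbp (ENSMUSG00000041607.17, chromosome 18, 82475146 to 82585637, plus strand, build GRCm38) encodes myelin basic protein, which binds the cytoplasmic faces of the membrane to each other. Its level was 1344 to 2236 CPM in OB (median 1759, n = 18), 2588 to 5284 CPM in CBL (median 3603, n = 18), 2704 to 13367 CPM in BRN (median 5246, n = 16) and 9563 to 10885 CPM in BST (median 10129, n = 18). Every BST library lay above every OB and CBL library and every CBL library lay above every OB library, while the BRN libraries ran from within the CBL range to above the highest of BST. The spread between libraries of a region also differed, with a coefficient of variation of 4.21% in BST and 51.9% in BRN.

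Mobp (ENSMUSG00000032517.16, chromosome 9, 120149707 to 120181484, plus strand) encodes another small basic protein of the compact layers. Its level was 393 to 726 CPM in OB (median 570), 795 to 1590 CPM in CBL (median 1104), 887 to 6485 CPM in BRN (median 2426) and 2924 to 3937 CPM in BST (median 3286). As for Mbp, the BRN libraries ran from within the CBL range to above the highest of BST, and their highest value was 7.31 times their lowest. Mal (ENSMUSG00000027375.14, chromosome 2, 127633226 to 127656695, minus strand) encodes a membrane protein that takes part in sorting of proteins and lipids to the sheath. Its level was 127.6 to 227 CPM in OB (median 168.1), 211 to 441 CPM in CBL (median 308), 303 to 496 CPM in BRN (median 417) and 801 to 1099 CPM in BST (median 842). All BST libraries lay above all others for Mal, while the ranges of BRN and CBL overlapped, as did those of CBL and OB.

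Of the proteins at the surface of the sheath, Mag (ENSMUSG00000036634.15, chromosome 7, 30899176 to 30914873, minus strand) lies on the innermost layer, against the axon. It had 77.2 to 129 CPM in OB (median 98.1), 149.9 to 243 CPM in CBL (median 190.7), 264 to 465 CPM in BRN (median 327) and 506 to 683 CPM in BST (median 590). Mag was the member whose 4 regional ranges were all separate. Mog (ENSMUSG00000076439.12, chromosome 17, 37010743 to 37023398, minus strand) lies on the outermost face of the sheath. It had 33.6 to 56.3 CPM in OB (median 43.8), 85.3 to 165.9 CPM in CBL (median 111.96), 96.1 to 157.7 CPM in BRN (median 134.4) and 288 to 383 CPM in BST (median 318). For Mog BST stood above all other regions and OB below them, and BRN and CBL overlapped.

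Cldn11 (ENSMUSG00000037625.7, chromosome 3, 31149920 to 31164324, plus strand) encodes the claudin that forms tight junctions between myelin layers. Its level was 63 to 99.6 CPM in OB (median 77.4), 94.6 to 176.95 CPM in CBL (median 132.2), 130.3 to 250 CPM in BRN (median 190.6) and 346 to 440 CPM in BST (median 361). BST stood above the other regions, and each of the other neighbours in that order overlapped. Cnp (ENSMUSG00000006782.16, chromosome 11, 100574904 to 100591729, plus strand) encodes an enzyme that keeps cytoplasmic channels open within the sheath. It had 182.4 to 276 CPM in OB (median 206), 336 to 511 CPM in CBL (median 401), 424 to 646 CPM in BRN (median 550) and 716 to 984 CPM in BST (median 832). OB and BST stood apart from the rest, and BRN and CBL overlapped.

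Ugt8a (ENSMUSG00000032854.12, chromosome 3, 125865271 to 125938619, minus strand) encodes the enzyme that makes galactosylceramide, the main glycolipid of myelin. It had 29.3 to 51.2 CPM in OB (median 35.8), 34.7 to 92.4 CPM in BRN (median 68.1), 78.2 to 135.04 CPM in CBL (median 93.5) and 225 to 352 CPM in BST (median 286). Here CBL, not BRN, came after BST by its median, and the ranges of BRN overlapped those of both CBL and OB. Opalin (ENSMUSG00000050121.9, chromosome 19, 41061710 to 41077113, minus strand) encodes a transmembrane glycoprotein of oligodendrocytes. It had 4.69 to 13.1 CPM in OB (median 7.43), 14.2 to 32.8 CPM in CBL (median 21.3), 34.6 to 76.5 CPM in BST (median 54.4) and 30.2 to 96.2 CPM in BRN (median 54.7). Its BST range lay within that of BRN, every BST library was above CBL, and the lowest BRN libraries fell within the CBL range.

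**Figure D1:**
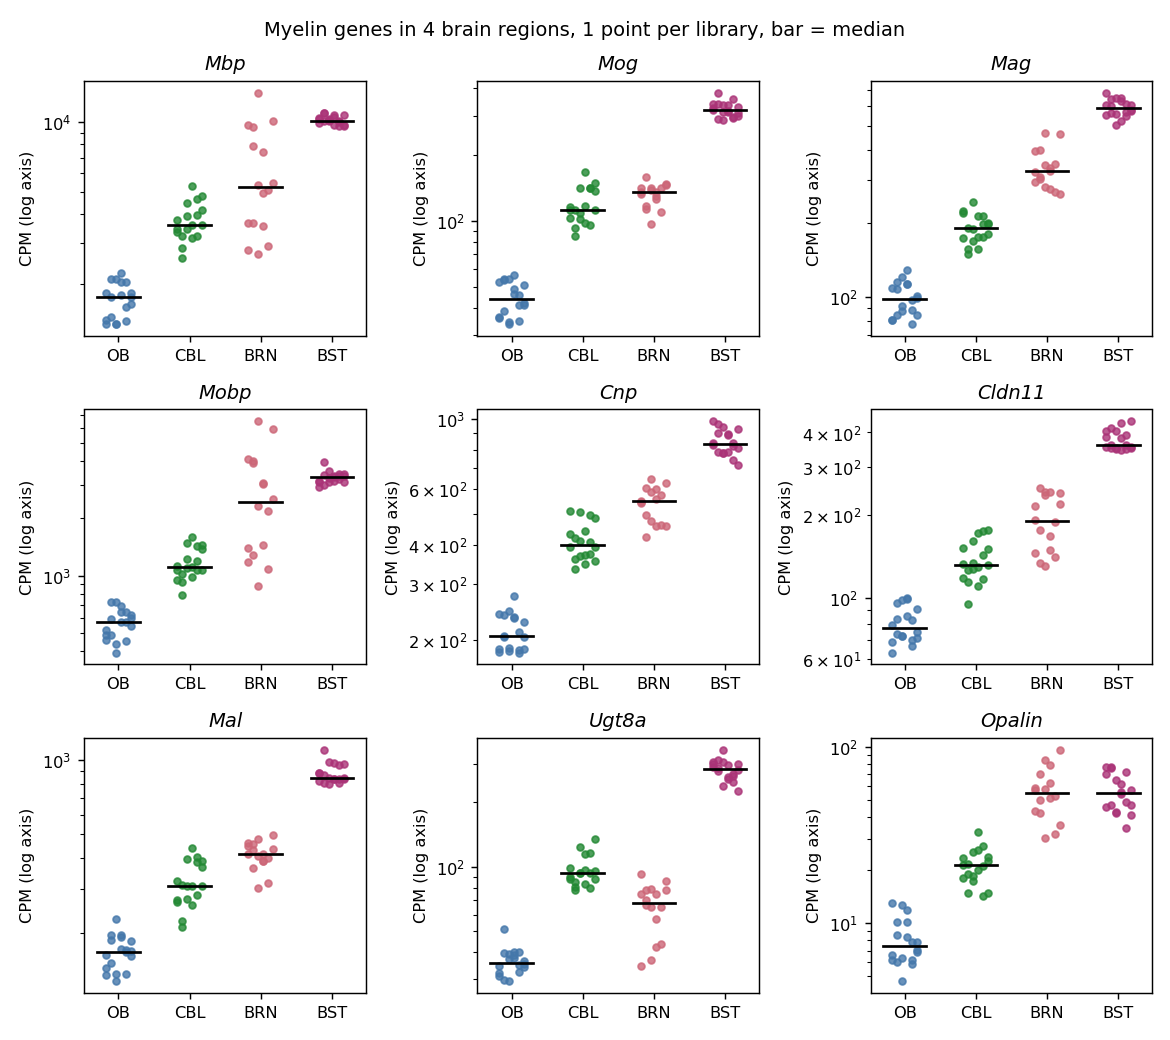
Level of each of the 9 genes (CPM, log axis) in the retained libraries of olfactory bulb (OB), brain (BRN), cerebellum (CBL) and brainstem (BST), with 1 point per library and a bar at the median. BST lies above OB for each gene, and the BRN points of Mbp and Mobp spread from the CBL range to above the BST range.

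Levels of different genes can be set side by side only per length, here as CPM per kb of exon. In BST the medians per kb were 1196 for Mbp, 480 for Mobp, 303 for Mal, 229 for Cnp, 192.9 for Cldn11, 186.6 for Mog, 144.9 for Mag, 63.1 for Ugt8a and 18.5 for Opalin. In OB the order on the same scale was the same, from 208 for Mbp through 83.2 for Mobp to 7.89 for Ugt8a and 2.52 for Opalin. Cnp shares bases with Dnajc7, which is transcribed from the opposite strand, and the strand setting of the authors' counting is not stated, so the level of Cnp is uncertain to that extent. Rpl21-ps8 overlaps Mbp and Gm22388 overlaps Mog, each from the opposite strand too, whereas Gm38642 overlaps Mobp on the same strand.

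Region pairs were tested over all time points with the edgeR quasi-likelihood test and Benjamini-Hochberg adjustment over 18496 genes, and a gene was called at an adjusted p under 0.05 with a log2 fold change over 1. In BST over OB, 9 of the 9 members were called higher, where 13.7% of all genes tested were. The log2 fold change there ran from 2.07 for Cnp (edgeR adjusted p 1.65e-48) to 3.03 for Ugt8a (SE 0.09, edgeR adjusted p 3.76e-41), and all 18 BST libraries lay above all 18 OB libraries for each member. In BST over CBL, 9 of 9 were called higher against 13.1% of all genes, with log2 fold changes from 1.10 for Cnp to 1.70 for Mag. In BRN over OB, 9 of 9 were called higher against 15.2% of all genes, from 1.03 for Ugt8a to 3.00 for Opalin. The call of Ugt8a in that pair was lost with no filter on low counts (0.99), with all libraries (0.99) and with 0 h libraries alone (0.71).

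The middle regions differed less. In CBL over OB, 5 of 9 were called higher against 11.1% of all genes: Mog (log2 fold change 1.42), Opalin (1.41), Ugt8a (1.41), Mbp (1.12) and Mobp (1.05). Cnp (0.96), Mag (0.96), Mal (0.93) and Cldn11 (0.77) were under the fold threshold in that pair. With the 0 h libraries alone, Mbp (0.99) and Mobp (0.92) were under it too and Cnp (1.00) was over it. In BRN over CBL, 3 of 9 were called higher where 19% of all genes were, namely Opalin (1.59), Mobp (1.44) and Mag (1.01), and Ugt8a was lower in BRN by less than the threshold (−0.38, edgeR adjusted p 0.000167). The call of Mag was lost in each of the 8 alternative settings, with values from 0.88 to 1.00, and with the 0 h libraries alone that of Mobp was lost as well (0.22).

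In BST over BRN, 2 of 9 members were called higher, where 11.2% of all genes were. These were Ugt8a (2.00, edgeR adjusted p 5.6e-30) and Mog (1.19, edgeR adjusted p 7.36e-29), for which all 18 BST libraries lay above all 16 BRN libraries. Mal (0.98), Cldn11 (0.87), Mag (0.69), Mbp (0.63, edgeR adjusted p 0.000125) and Cnp (0.54) had adjusted p values under 0.05 at smaller differences. Mobp (0.13, edgeR adjusted p 0.5) and Opalin (−0.12, edgeR adjusted p 0.299) did not. Mal passed the threshold in 7 of 8 alternative settings, at 1.00 with animal as a block, 1.02 with no filter on low counts, 1.03 with RLE factors and 1.03 by DESeq2, all on the same libraries. Other calls in this pair depended on which BRN libraries were compared. With the 0 h libraries alone 6 members were called, Mbp at 1.66, Mobp at 1.55, Cldn11 at 1.14 and Mal at 1.11 among them, and Opalin was then higher in BST (0.66, edgeR adjusted p 0.0366). Without the 4 brain libraries that stood apart, 3 members were called in BST over BRN, Mal being added at 1.00, and 2 in BRN over CBL, where Mag came to 0.96. The other 4 region pairs had the same number of members called without them.

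The other genes of the pathway were taken as lists. Of 24 other compact myelin and myelin lipid genes tested, 21 were called higher in BST than in OB, where 13.7% of all genes were. Their median log2 fold change was 2.26 against −0.04 over all genes tested. In BST over CBL 18 of the 24 were called higher against 13.1% of all genes (median 1.35 against 0.02). In BST over BRN 11 were, against 11.2% of all genes (median 0.90 against −0.04). Of 11 oligodendrocyte transcription factors, 7 were called higher in BST than in OB against the same 13.7% of all genes (median 1.11). Among them was Myrf at 2.66, while Sox10 differed by 0.45. Of 11 genes of precursors and new oligodendrocytes, 3 were called higher and 1 lower in BST than in OB (median 0.77), where 12.1% of all genes were lower, and in CBL over OB 0 were called higher and 5 lower against 13.3% of all genes lower (median −0.75 against 0.01). Of 9 tested genes of peripheral myelin and Schwann cells, 2 were called higher and 2 lower in BST than in OB (median 0.48). Of all genes, 13.7% were called higher there and 12.1% lower.

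Lists for other cells of the tissue gave the following counts in BST over OB, with the median over all genes at −0.04. Of all genes tested there, 13.7% were called higher and 12.1% lower. Among 7 astrocyte genes 2 were called higher and 1 lower (median 0.36), and among 8 neuron genes 3 were called higher and 1 lower (median 0.38). Of 6 microglia genes 0 were called by edgeR under both criteria (median −0.60), with 5 at an unadjusted p under 0.05, as were 14222 of all 18496 genes. Among 5 endothelium genes 4 were called higher (median 1.06), and among 5 choroid plexus genes 5 were (median 3.87). Among 7 genes of cerebellar neurons 4 were called higher and 1 lower in BST (median 2.63). The same list was called higher in CBL than in OB for 7 of 7 (median 6.44), where 11.1% of all genes were. Among 8 forebrain genes 3 were called higher and 4 lower in BST than in OB (median −0.47).

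The question of the time points was whether these levels move as the fast goes on. Within each region, every fasted time point was compared with 0 h (adjusted p under 0.05 and an absolute log2 fold change over 1), all time points were tested jointly (adjusted p under 0.05), and a straight line over hours gave a trend, stated as log2 fold change over 22 h (adjusted p under 0.05). The fed and fasted groups each held 3 mice, or 2 where a library was left out.

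Members were called for a trend by edgeR in CBL and BRN, and CBL comes first. Cldn11 there had 118.01, 94.6 and 126.8 CPM at 0 h, 110.3, 116.7 and 131.2 CPM at 2 h, 151.8, 113.7 and 133.95 CPM at 8 h, 129.5, 142.7 and 150.97 CPM at 12 h, 133.1, 126.03 and 161.5 CPM at 18 h and 172.6, 175.01 and 176.95 CPM at 22 h. All 3 libraries at 22 h lay above every other CBL library, and the 12 h libraries lay above those of 0 h. Its trend was 0.52 (SE 0.09, edgeR adjusted p 0.00971), and at 22 h it was 0.61 over 0 h (edgeR adjusted p 0.00862) in 3 of 3 libraries, short of the fold threshold. Mog had 103.01, 92.1 and 108.4 CPM at 0 h, 97.6, 95.5 and 112.1 CPM at 2 h, 115.2, 85.3 and 101.6 CPM at 8 h, 116.8, 141.1 and 147.7 CPM at 12 h, 111.5, 111.8 and 140.6 CPM at 18 h and a mean of 147.7 ± 16 CPM (SD, n = 3) at 22 h, where the highest library had 165.9 CPM. The 3 earliest time points overlapped and the 3 latest lay above all 0 h libraries, with a trend of 0.51 (SE 0.10, edgeR adjusted p 0.0181). Mal had 266, 211 and 275 CPM at 0 h, 259, 284 and 308 CPM at 2 h, 323, 224 and 309 CPM at 8 h, 308, 386 and 389 CPM at 12 h, 272, 313 and 399 CPM at 18 h and 441, 405 and 369 CPM at 22 h. All 22 h libraries exceeded all 0 h libraries for Mal, and its trend was 0.57 (SE 0.12, edgeR adjusted p 0.0235).

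Opalin had 23.4, 19 and 17.3 CPM at 0 h in CBL, 14.2 to 20.1 CPM at 2 h, 14.9 to 18.4 CPM at 8 h, 21.1 to 25.9 CPM at 12 h, 21.5 to 25.3 CPM at 18 h and 23.6 to 32.8 CPM at 22 h. The libraries of 0, 2 and 8 h overlapped, and each 22 h library lay above each 0 h library, with a trend of 0.55 (SE 0.13, edgeR adjusted p 0.0324). Mag had 174.7, 149.9 and 189.5 CPM at 0 h and 214, 214 and 198.05 CPM at 22 h. These groups did not overlap, and its trend was 0.35 (SE 0.09, edgeR adjusted p 0.0384). Cnp had 394, 336 and 410 CPM at 0 h and 444, 498 and 485 CPM at 22 h. These did not overlap either, with a trend of 0.34 (SE 0.09, edgeR adjusted p 0.0407), and with the replicate as a block this call was lost at the same size (edgeR adjusted p 0.05). Mbp had 3457, 2588 and 3449 CPM at 0 h and 5284, 3965 and 3589 CPM at 22 h, and its trend of 0.30 missed the threshold (edgeR adjusted p 0.3) although the 22 h libraries were above those of 0 h. Mobp (trend 0.26, edgeR adjusted p 0.402) and Ugt8a (trend 0.11, edgeR adjusted p 0.738) missed it as well, and their 0 h and 22 h libraries overlapped.

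**Figure D2:**
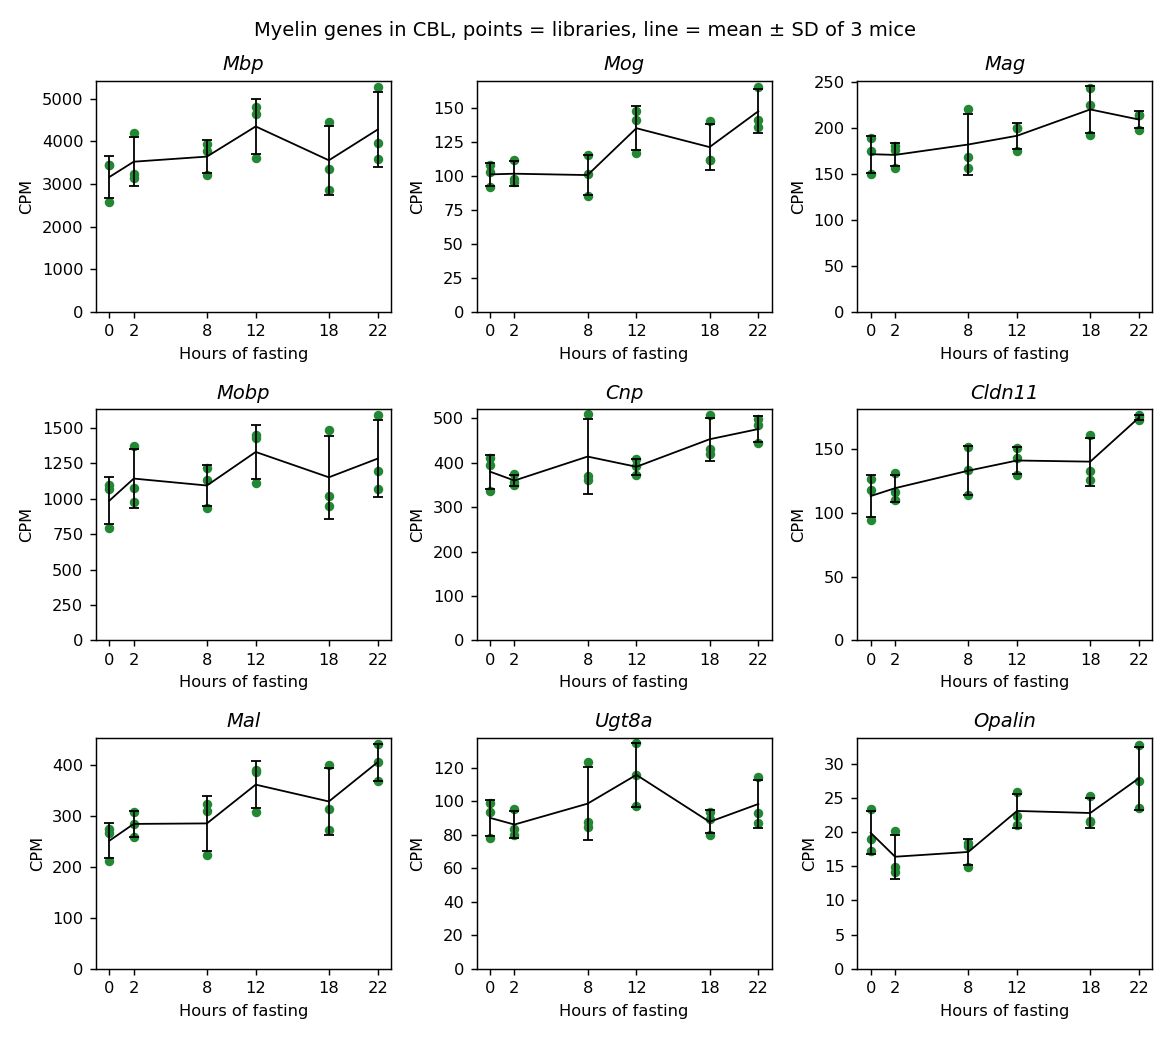
Mean level (CPM) of each of the 9 genes in cerebellum by hours of fasting, with bars of 1 SD over 3 mice. Cldn11 is highest at 22 h, with 174.8 ± 2.2 CPM against 113.2 ± 16.7 CPM at 0 h.

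By count, 6 of 9 members rose over hours in CBL, where 0.532% of all genes tested did. The number depended on single libraries. It was 1 without any of the 22 h replicates 1, 2 or 3, 2 without 18 h replicate 3, 3 without 0 h replicate 3 or 2 h replicate 2, 4 without 0 h replicate 2 or 2 h replicate 1, and 5 without 2 h replicate 3. Over such fits all genes called for a trend in either direction ran from 19 to 870, against 315 in the main fit. Cldn11 kept an adjusted p under 0.05 when any of the 18 libraries was left out, up to 0.0412 without 22 h replicate 2, and the calls of Cnp, Mag, Opalin, Mal and Mog were lost in 9, 7, 6, 5 and 3 of those 18 fits. The 0 h libraries of CBL were also the deepest, 20396385 to 22071004 counts against 6487419 to 9487976 in the rest, and depth and the 0 h group cannot be told apart there. Without the 0 h libraries 1 member and 26 of all genes were called. The member was Opalin at 0.83 (edgeR adjusted p 0.0283), and Cldn11 came to 0.50 (edgeR adjusted p 0.0511). The trends of Mog (0.56), Mal (0.51), Cnp (0.41) and Mag (0.37) were then close in size to those with all time points, at edgeR adjusted p values from 0.0883 to 0.155. A length measure of each library, described below for BRN, had a Pearson r over the 18 CBL libraries of −0.66 with log2 CPM of Mog, −0.59 with Mal, −0.40 with Cldn11, −0.34 with Opalin, −0.25 with Mag and −0.07 with Cnp, and of −0.74 with Mbp, −0.71 with Mobp and −0.60 with Ugt8a, which were not called. With it as a covariate 6 members were called for a trend in CBL, as without it, while all genes called came to 937 against 315 without it. Cldn11 was then at 0.50 and Opalin at 0.52. In the comparisons with 0 h, 0 of 9 members were called at any time point in CBL by edgeR, where 0.676% of all genes were, and 0 by DESeq2. By the smallest unadjusted p over the time points 8 members were under 0.05, and at 22 h alone 3312 of 15976 genes were. The joint test in CBL called 3 of 9, against 2.99% of all genes: Cldn11 (0.0321), Mog (0.0283) and Opalin (0.0307), in edgeR adjusted p. That count was 0 without 2 h replicate 2, 12 h replicate 2, 12 h replicate 3 or 22 h replicate 2, 1 without 22 h replicate 1, and 5 without 8 h replicate 1. Over such fits all genes called by the joint test ran from 22 to 1674, against 477 in the main fit. By DESeq2 6 members and 1771 genes were called. With no filter on low counts 7 members and 2397 genes were.

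Marker sums in the same CBL libraries show what else moved. The neuron list summed to 7081, 6650 and 6936 CPM at 0 h and to 6723, 7145 and 7236 CPM at 22 h, with a most abundant gene of Snap25 and 0 of 8 genes called for a trend by edgeR, 0 at an unadjusted p under 0.05. Astrocyte genes summed to 4363, 4455 and 4191 CPM at 0 h and to 4935, 5041 and 5083 CPM at 22 h, with Aldoc the most abundant and 1 of 7 called, Slc1a2 at 0.31. Choroid plexus genes, led by Ttr, summed to 1838, 5382 and 3477 CPM at 0 h and to 908, 704 and 1067 CPM at 22 h, with a median trend of −1.35. Endothelium genes, led by Slco1a4, summed to 76.1, 83.7 and 81.5 CPM at 0 h and to 166.2, 117.7 and 108.6 CPM at 22 h, with a median trend of 0.59. Of the 5 choroid plexus genes 0 were called by edgeR and 5 had an unadjusted p under 0.05, and of the 5 endothelium genes 0 were called and 4 did. Of all 15976 genes 2805 had such a p for a trend in CBL. No gene of these 4 lists had a median of 0 in CBL, and the part of these cells in the trend of the members was not tested. Among the 24 other compact myelin genes 3 rose in CBL, Tspan2 by 0.37, Gsn by 0.47 and Apod by 0.39 (edgeR adjusted p 0.0108, 0.0228 and 0.0446), with a list median of 0.16 against −0.00 over all genes. Olig1 among the transcription factors (0.43, edgeR adjusted p 0.0324) and Pdgfra among the precursor genes (0.39, edgeR adjusted p 0.0228) rose as well.

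In BRN the replicates of a time point differed widely. Mobp had 1179, 1282 and 887 CPM at 0 h, 3044, 1084 and 2542 CPM at 2 h, 4091 and 4006 CPM at 8 h, 2310, 3075 and 2176 CPM at 12 h, 5918 and 1392 CPM at 18 h and 3905, 6485 and 1448 CPM at 22 h. All 0 h libraries were low, but so were 2 h replicate 2, 18 h replicate 3 and 22 h replicate 3. Mobp at 22 h was 2.07 over 0 h (SE 0.65, edgeR adjusted p 0.0749), higher in 3 of 3 libraries, and its trend of 1.52 (SE 0.58, edgeR adjusted p 0.114) missed the threshold. This trend came to as little as 0.14 among 8 alternative settings. Mbp had 3663, 3670 and 2704 CPM at 0 h, 7429, 2910 and 5475 CPM at 2 h, 9730 and 9513 CPM at 8 h, 5377, 4962 and 5114 CPM at 12 h, 10098 and 2814 CPM at 18 h and 7860, 13367 and 3570 CPM at 22 h. The same libraries were high and low as for Mobp, and its trend was 1.05 (edgeR adjusted p 0.207).

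Opalin, Cnp and Cldn11 were the members called for a trend in BRN, 3 of 9, where 3.44% of all genes tested rose. Opalin had 43.2, 49.6 and 30.2 CPM at 0 h and 69.9, 84 and 51 CPM at 22 h. Every 22 h library was above every 0 h library, with a trend of 1.04 (SE 0.26, edgeR adjusted p 0.0309). Cnp had 543, 496 and 475 CPM at 0 h, 458 to 463 CPM at 2 h and 605, 646 and 560 CPM at 22 h. The 22 h libraries were above those of 0 h, the 2 h libraries below them, and the trend was 0.53 (SE 0.12, edgeR adjusted p 0.0265). Cldn11 had 192.7, 177.2 and 130.3 CPM at 0 h and 250, 243 and 242 CPM at 22 h. These groups did not overlap, with a trend of 0.64 (SE 0.18, edgeR adjusted p 0.0423).

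Those BRN calls rested on few libraries. The number of members called was 0 without 0 h replicate 1, 0 h replicate 2, 0 h replicate 3, 2 h replicate 2, 22 h replicate 1 or 22 h replicate 2, 5 without 12 h replicate 2 and 7 without 22 h replicate 3. Over such fits all genes called for a trend ran from 0 to 3443, against 985 in the main fit, so calls moved beyond the members. Cldn11 alone lost its call without 12 h replicate 1 (edgeR adjusted p 0.0575) or without 18 h replicate 2 (0.0613). With all 18 BRN libraries 0 members and 0 of all genes were called, with trends of 0.88 for Opalin, 0.82 for Cldn11 and 0.48 for Cnp. Without the 0 h libraries 0 members and 0 genes were called as well, with 0.93 for Opalin, 0.59 for Cldn11 and 0.56 for Cnp (each at an edgeR adjusted p of 0.858), so the calls were lost at trends of much the same size. DESeq2 called 6. Against 0 h, 0 of 9 members were called at any time point in BRN by edgeR, where 5.93% of all genes were. DESeq2 called 3 members and 2128 genes. The edgeR count became 1 without 2 h replicate 2 or 18 h replicate 2, and 3 without 18 h replicate 3 or 22 h replicate 3. Over such fits all genes called ran from 0 to 5057, against 994 in the main fit. By the smallest unadjusted p over the time points 8 members were under 0.05, and at 18 h alone 4122 of 16749 genes were. The joint test in BRN called 0 of 9 by edgeR against 0.00597% of all genes, and 0 by DESeq2. At an unadjusted p under 0.05 were 2 members and 2780 of 16749 genes. Without 18 h replicate 3 the joint test called 1 member. With no filter on low counts it called 3 members and 2015 genes.

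A length measure of each library moved with these levels, and its source was not tested. For each library, the deviation of 16389 genes from their BRN median was correlated by rank with exon length, so that a positive length measure means relatively more RNA from long transcripts. It averaged 0.42 in the 3 BRN libraries of 0 h, from 0.38 to 0.49, and −0.19 at 22 h, from −0.40 to 0.23. Every other BRN library lay below those of 0 h, and 2 h replicate 2 (0.37) and 22 h replicate 3 (0.23), both low in Mobp, came closest to them. At 18 h the measure did not follow Mobp, with −0.01 in replicate 3 (1392 CPM) and −0.07 in replicate 2 (5918 CPM). Over the 16 BRN libraries, which share the 0 h group, Pearson r of log2 CPM with the measure was −0.86 for Mobp, −0.78 for Mbp, −0.72 for Opalin, −0.66 for Mag, −0.52 for Mog, −0.47 for Cnp, −0.42 for Mal, −0.36 for Cldn11 and −0.32 for Ugt8a, and Spearman rho was −0.84 for Mobp. The labels number the BRN libraries in separate series, and 1 series held 5 libraries, the 3 of 0 h with 2 h replicate 3 and 12 h replicate 3. Within the other 11 libraries r was −0.79 for Mobp, −0.73 for Mbp, −0.66 for Opalin, −0.45 for Cnp and −0.34 for Cldn11. The series of 5 was too small for a value. With the library number series as a covariate 0 members and 0 of all genes were called for a trend in BRN, where Opalin came to 0.80, Cnp to 0.53 and Cldn11 to 0.72 (each at an edgeR adjusted p of 0.727). With the length measure as a covariate 0 members and 0 of all genes were called, where Opalin came to 0.52, Cnp to 0.38 and Cldn11 to 0.47. Since 0 genes were called at all, these counts are not particular to the members. All 3 libraries of 0 h lie in the series of 5, and no fasted BRN library reached their length measure, so the fed group and this property of the libraries cannot be told apart.

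**Figure D3:**
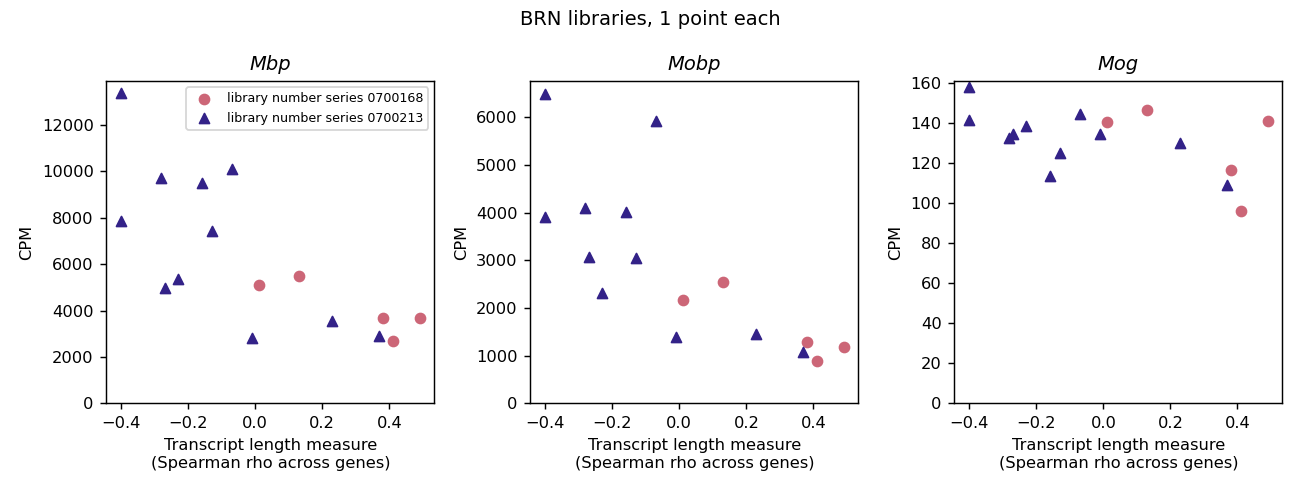
Level (CPM) of Mbp, Mobp and Mog in the 16 retained brain (BRN) libraries against the length measure of each library, with a marker for each library number series of the labels. The libraries with the highest measure, 0.37 to 0.49, have 887 to 1282 CPM of Mobp, and the highest Mobp level, 6485 CPM, is at −0.40.

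Other genes moved in the same BRN libraries. The neuron list, led by Snap25, summed to 7031, 6598 and 6276 CPM at 0 h, 5038 and 4742 CPM at 8 h, 3798 and 6017 CPM at 18 h, and 5050, 4236 and 6598 CPM at 22 h, and the libraries low in Mobp at 18 and 22 h were the high ones for this sum. Its median trend was −0.26 against −0.03 over all genes, with 0 of 8 called by edgeR. An unadjusted p under 0.05 was found for 3 of the 8, and for 4427 of all 16749 genes. The part of the neuron list in the result was not tested. Among the 24 other compact myelin genes Apod rose over hours in BRN by 0.66 and Gsn by 0.65 (edgeR adjusted p 0.0265 and 0.0294), with a list median of 0.36. Trf, the transferrin gene, was called higher than at 0 h at 12 h (1.91), 18 h (1.89) and 22 h (1.41). Of all genes, 2.3%, 1.47% and 2.95% were called higher at these times. At 18 h, with 2 libraries, the transcription factors Myrf (−1.15) and St18 (−2.94) were called lower, where 0.436% of all genes were. One of the 2 libraries, replicate 2, is the one of lowest correlation named above and held the lowest BRN sum of the transcription factor list (295 CPM), and these 2 calls were not tested without it. Of 11 precursor genes 1 was called for a trend in BRN, Ptprz1, which fell by 0.73 (edgeR adjusted p 0.0347) where 2.44% of all genes fell, and the list median was −0.16. In either direction 5.88% of all genes were called for a trend in BRN. Of 7 peripheral genes tested there 2 were called, Pmp22 at 1.01 and Drp2 at −0.62, with a list median of −0.62. Of 6 microglia genes 1 was called, C1qa at 0.87, with a list median of 0.04, and the list sum was 304, 330 and 340 CPM at 0 h and 276, 336 and 309 CPM at 22 h. Of 7 astrocyte genes 1 was called, Slc1a2 at −0.39, with a list median of 0.20, and the list sum was 3435, 3782 and 3845 CPM at 0 h and 3467, 3526 and 3954 CPM at 22 h. These 2 sums overlapped between 0 and 22 h.

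In OB the joint test called 3 of 9 members where 15.3% of all genes were called, so that a call was common here. Opalin had 6.64, 8.6 and 4.69 CPM at 0 h, 6.07 to 6.33 CPM at 8 h, 13.1, 10.1 and 12.7 CPM at 18 h and 10.1, 7.87 and 7.85 CPM at 22 h. The 18 h libraries lay above all those of 0 h, and at 18 h the log2 fold change was 0.84 (edgeR adjusted p 0.0236), higher in 3 of 3 libraries and under the fold threshold. The highest of them, replicate 1, had the lowest mean rank correlation with the other OB libraries (0.978) and a length measure of −0.53. Cnp had 183.6, 206 and 185.2 CPM at 0 h and 242, 240 and 248 CPM at 18 h. Here too the groups did not overlap, with 0.34 at 18 h (edgeR adjusted p 0.0381). Mog had 36.4, 53.3 and 33.6 CPM at 0 h and 52.2, 54 and 53.9 CPM at 18 h, and 0 h replicate 2 was as high as the fasted libraries. The joint edgeR adjusted p was 0.0372 for Opalin, 0.0444 for Cnp and 0.0459 for Mog, and for Mog it was 0.0565 with the replicate as a block and 0.0504 with RLE factors, so that this call was lost.

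That OB count was 0 without 0 h replicate 1, 2 h replicate 3, 8 h replicate 1, 8 h replicate 3, 18 h replicate 1, 18 h replicate 3 or 22 h replicate 3, and 1 without 8 h replicate 2, 12 h replicate 3, 18 h replicate 2 or 22 h replicate 1. It was 5 without 12 h replicate 1 and 6 without 0 h replicate 2. Over such fits all genes called by the joint test ran from 1035 to 3675. With no filter on low counts the joint test called 8 members and 4388 genes. The OB libraries of 0 h and 2 h and of 8 h replicates 1 and 2 were run on another lane than the later ones, and with the lane as a covariate 0 members and 1178 genes were called, against 2568 genes without it. Against 0 h, 0 of 9 members were called at any time point in OB by edgeR, where 0.544% of all genes were, and 0 by DESeq2. Without 0 h replicate 2 edgeR called 1 member. By the smallest unadjusted p over the time points 6 members were under 0.05, and at 18 h alone 5223 of 16742 genes were. For a rising trend in OB, 0 of 9 were called by edgeR against 0.108% of all genes, and 0 by DESeq2. At an unadjusted p under 0.05 for a trend were 7 members and 2803 of 16742 genes. The length measure was also uneven there, with means of 0.33 at 8 h and −0.41 at 18 h, and its Pearson r with log2 CPM over the 18 libraries was −0.81 for Cnp, −0.79 for Mag, −0.72 for Mog, −0.69 for Opalin, −0.64 for Cldn11, −0.59 for Mal, −0.56 for Mbp, −0.40 for Mobp and, in the other direction, 0.24 for Ugt8a. Among the 24 other compact myelin genes 0 were called for a trend in OB by edgeR. An unadjusted p under 0.05 was found for 4 of them, and for 2803 of all 16742 genes. In the joint test, where 15.3% of all genes were called, Pllp of this list was among those called (edgeR adjusted p 0.018).

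The BST levels were the steadiest of the 4 regions for Mbp and Mobp. Mbp had 10439, 10885 and 10301 CPM at 0 h in BST and 10512, 10009 and 10738 CPM at 22 h, and the groups overlapped. Cldn11 had 406, 351 and 347 CPM at 0 h and 433, 391 and 440 CPM at 22 h, and overlapped as well, with a trend of 0.21 (edgeR adjusted p 0.129). Ugt8a had 307, 314 and 309 CPM at 0 h and 263, 248 and 225 CPM at 22 h. The 22 h libraries lay below those of 0 h in 3 of 3, with −0.33 at 22 h (edgeR adjusted p 0.149) and a trend of −0.27 (edgeR adjusted p 0.179), so the difference missed the threshold.

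In BST, 0 of 9 members rose over hours by edgeR, where 0% of all genes tested did, and 0 by DESeq2. At an unadjusted p under 0.05 were 1892 of 16784 genes and 5 members (Cldn11, Mal, Cnp, Mog and, in the opposite direction, Ugt8a). Without 0 h replicate 1, 3 members were called for a trend. Without the 0 h libraries 2 members and 51 genes were called, Cnp at 0.29 and Cldn11 at 0.27 (both edgeR adjusted p 0.0333). With the length measure as a covariate 1 member and 24 genes were. Against 0 h, 0 of 9 were called at any time point in BST by edgeR, where 0% of all genes were, and 0 by DESeq2. By the smallest unadjusted p over the time points 5 members were under 0.05, and at 18 h alone 1579 of 16784 genes were. The joint test in BST called 0 of 9 by edgeR against 0.107% of all genes. At an unadjusted p under 0.05 were 6 members and 1869 of 16784 genes. DESeq2 called 3 members and 212 genes. Without 0 h replicate 3, 12 h replicate 3 or 18 h replicate 1 the joint test called 1 member. Over such fits all genes called ran from 1 to 207. With no filter on low counts it called 4 members and 749 genes. Of the 24 other compact myelin genes 0 were called for a trend in BST by edgeR. An unadjusted p under 0.05 was found for 2 of them, and for 1892 of all 16784 genes.

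A trend called in CBL and not in BST or OB is not shown to differ between them, so the difference of the trend between the 4 regions was tested itself. It was called for 1 of 9 members, where 17% of all genes tested were called, a larger share, with 1 member at an unadjusted p under 0.05. That member was Mobp (edgeR adjusted p 0.0402), with a trend of 1.52 in BRN and of 0.25, 0.26 and 0.10 in OB, CBL and BST. For Cldn11 the edgeR adjusted p of this test was 0.187, with trends of 0.64 in BRN, 0.52 in CBL, 0.35 in OB and 0.21 in BST, all of them positive. The value for Mobp was 0.0926 with animal as a block, 0.205 with all libraries and 0.814 without BRN, so it rested on the BRN libraries described above. The BRN trend of Mobp itself ran from 0.14 to 1.52 over 8 alternative settings.

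Across the 70 retained brain libraries, after the mean of each region was subtracted, the members moved together to unequal degrees. The following r values are a description over libraries that share animals, lanes and time points. Pearson r of log2 normalized CPM of a member with the mean of the other members was 0.869 for Mbp, 0.857 for Mag, 0.855 for Mobp, 0.844 for Mal, 0.831 for Mog, 0.808 for Cldn11, 0.735 for Opalin, 0.732 for Cnp and 0.569 for Ugt8a. Mbp and Mobp had an r of 0.96 with each other over the 70 libraries, with 0.97 in BRN, 0.95 in CBL, 0.94 in OB and 0.51 in BST. Mog and Mal had 0.92, and Cnp and Ugt8a 0.18. Within BST, Cldn11 and Ugt8a had −0.63 over 18 libraries.

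Among the 10 other genes whose values were most like the mean of the members, again over 70 libraries with region means subtracted, were Pdlim2 (r 0.917), Qdpr (0.896), Evi2a (0.879), Bcas1 (0.879), Plekhb1 (0.864), Atp5f1 (0.854), Rps16-ps2 (0.853), S100b (0.850) and Eif3h (0.847). With region means kept in, so that differences between regions dominate, they were Tmem125 (0.980), Cd83 (0.977), Nkx6-2 (0.977), Tmem88b (0.972), Rassf5 (0.972), Pllp (0.971), Galnt6 (0.970), Bcas1 (0.969), Carhsp1 (0.968) and Csrp1 (0.967). Bcas1 was the gene on both lists.

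Since the members move together between regions, their promoters were searched for short sequences, in the 250 bases before each start given by RefSeq (build GRCm38.p6), on both strands. A promoter entry was used for 8 members, not for Mbp. The letters ACAAAG, which read CTTTGT on the other strand and are a core of sequences that SOX factors can bind, were found at least once in 16.5% of 32536 promoters and in 4 of the 8 members, Mag, Mobp, Cnp and Opalin. AACAAT, which reads ATTGTT on the other strand, is another SOX-like core and was found in 9.35% of promoters and in 0 of the 8. CAGCTG, an E-box that reads the same on both strands, was found in 13.1% and in 0 of the 8. Matches of each motif were counted separately. Mobp had 6 matches of ACAAAG, counting both strands, where 1.75% of promoters had 2 or more and 1 promoter, that of Mobp itself, had 6. The entries of Mobp, Mag and Opalin are shown because they hold matches, and they were picked after their sequences were seen. The capitals mark the matches, and a match describes letters, not a bound site. The Mobp sequence is chr9:120149492-120149706 on the plus strand, the Mag sequence chr7:30914874-30915113 on the minus strand and the Opalin sequence chr19:41077114-41077363 on the minus strand, each 5′ to 3′ in the direction of the gene and cut to end before the annotated gene start, so that 215 of the 250 bases searched are shown for Mobp and 240 for Mag.
Mobp: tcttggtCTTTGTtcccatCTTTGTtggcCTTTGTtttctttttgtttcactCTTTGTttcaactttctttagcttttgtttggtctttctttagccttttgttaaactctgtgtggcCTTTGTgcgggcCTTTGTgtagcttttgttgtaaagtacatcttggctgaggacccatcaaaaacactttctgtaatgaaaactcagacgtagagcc
Mag: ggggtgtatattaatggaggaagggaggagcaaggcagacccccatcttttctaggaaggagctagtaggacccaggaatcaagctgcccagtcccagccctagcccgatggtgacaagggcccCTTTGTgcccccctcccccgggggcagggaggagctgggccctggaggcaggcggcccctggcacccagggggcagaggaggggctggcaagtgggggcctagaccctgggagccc
Opalin: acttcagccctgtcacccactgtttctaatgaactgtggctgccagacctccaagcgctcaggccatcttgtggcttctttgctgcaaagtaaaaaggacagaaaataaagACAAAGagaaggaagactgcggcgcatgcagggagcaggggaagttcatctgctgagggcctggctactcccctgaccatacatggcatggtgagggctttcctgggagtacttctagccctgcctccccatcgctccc

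Outside the brain, Mbp was found in every library, with low levels in liver. It had 35.3 to 82.7 CPM in STM (median 64.3, n = 17), 0.248 to 2.17 CPM in LIV (median 0.796, n = 18), 21.8 to 54.9 CPM in iBAT (median 39.7, n = 17), 12.2 to 67.7 CPM in pgWAT (median 29, n = 18) and 63.8 to 1680 CPM in psWAT (median 130.95, n = 17). The highest psWAT value is that of 12 h replicate 3, which also holds the neuronal genes named above. Without it, psWAT reached 186.3 CPM (median 126.4). Mal had 68.6 to 506 CPM in STM (median 271), a median between those of OB and CBL, against medians of 0.542 CPM in LIV and 2.83 CPM in iBAT. In pgWAT its median was 3.29 CPM and its highest values were 190.4 CPM in 22 h replicate 2 and 111.4 CPM in 18 h replicate 3. Cnp had medians of 24.6 CPM in STM, 9.13 CPM in LIV, 9.43 CPM in iBAT and 23.6 CPM in pgWAT, and in psWAT it ran from 49.6 to 267 CPM, or to 202 CPM without 12 h replicate 3.

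The other members had lower medians in each organ outside the brain than in any brain region, and some medians were 0. In a library with a count of 0 the data allow up to 3 counts, which is 0.218 to 0.438 CPM in STM, 0.241 to 0.431 CPM in LIV, 0.108 to 0.951 CPM in iBAT, 0.151 to 0.519 CPM in pgWAT and 0.306 to 0.732 CPM in psWAT, for counting error only. Opalin had a count of 0 in every STM and LIV library, and its highest value was 0.143 CPM in iBAT, 0.125 CPM in pgWAT and, without psWAT 12 h replicate 3, 1.95 CPM in psWAT. Mog had 0 in every LIV library and a median of 0 in the other organs outside the brain. Mobp had medians of 0 in STM and LIV, 0.209 CPM in iBAT, 0.226 CPM in pgWAT and 0.34 CPM in psWAT. It reached 432 CPM in psWAT 12 h replicate 3, 52 CPM in psWAT 22 h replicate 3 and 17 CPM in pgWAT 8 h replicate 1, and Snap25 had 2621, 102.5 and 18.7 CPM in the same libraries. Mag had a median of 4.28 CPM in psWAT and at most 10 CPM there without 12 h replicate 3, Cldn11 had medians of 4.55 CPM in pgWAT, where it reached 16.1 CPM, and 3.24 CPM in psWAT, and Ugt8a had medians of 2.44 CPM in STM, where it reached 5.74 CPM, and 2.24 CPM in psWAT, or 1.41 CPM there without 12 h replicate 3.

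**Figure D4:**
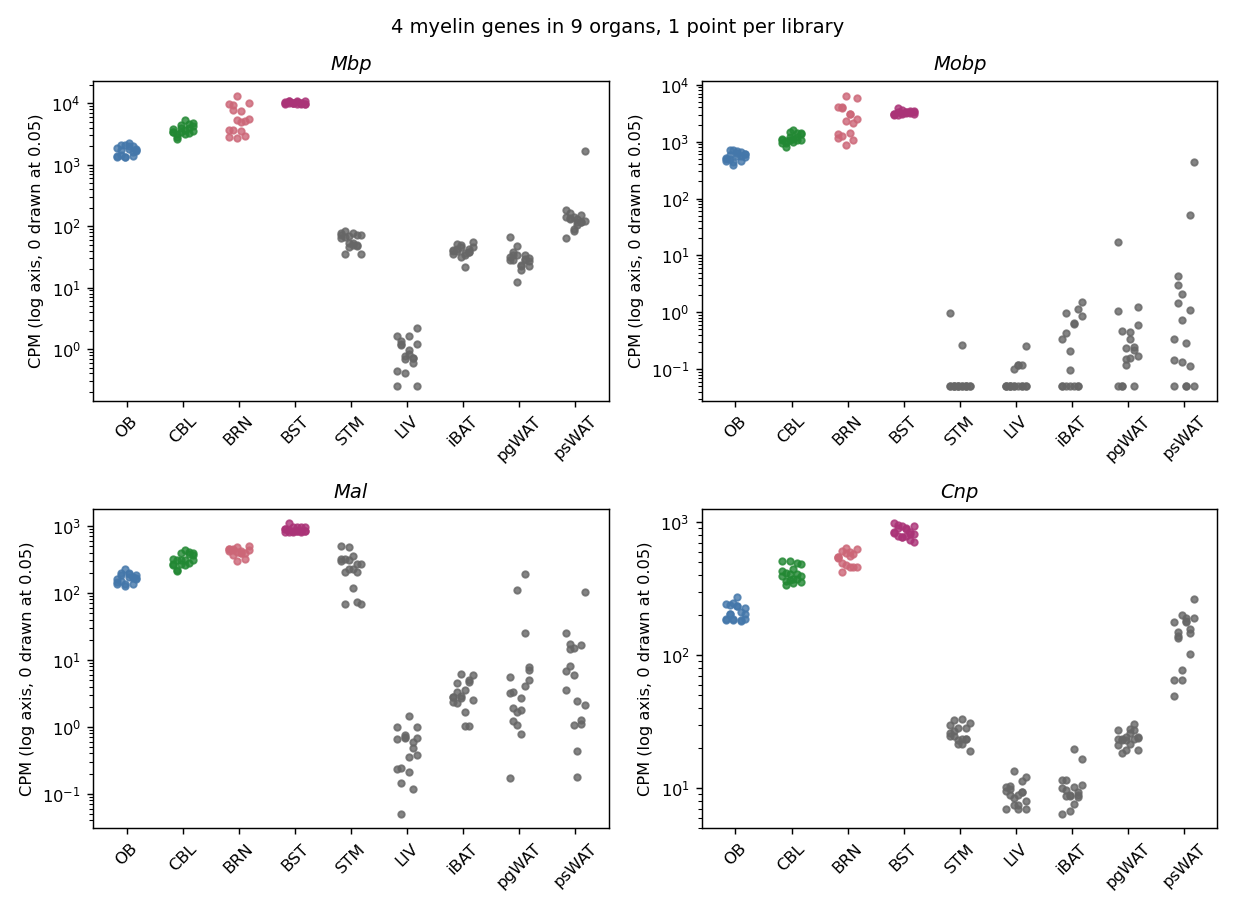
Level (CPM, log axis, with 0 drawn at 0.05) of Mbp, Mobp, Mal and Cnp in the retained libraries of the 9 organs, with 1 point per library. Mal in stomach, with a median of 271 CPM, reaches brain levels, and the psWAT point of Mbp at 1680 CPM is 12 h replicate 3.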

How the data were processed

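The authors made stranded mRNA libraries, sequenced them as pairs, aligned reads with TopHat2 2.1.1 to GRCm38.p5 and counted unique reads per gene with HTSeq 0.9.1, and they deposited the raw count of each gene in each library. The strand setting of that counting is not stated. Members and gene lists were chosen with earlier results of these data known. Libraries with a log total more than 2 SD under the mean were left out. Genes entered a test when at least 3 libraries reached the CPM that equals 10 counts in the median library. Tests used edgeR 4.0.16 (quasi-likelihood, TMM factors, robust), with limma 3.58.1 and R 4.3.3, and Benjamini-Hochberg adjustment over all genes tested in a comparison. Region pairs were fitted over all time points with time as a factor, and time points, joint tests and trends within a region. The difference of trends was fitted over 4 regions.

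Levels are CPM of the library total, with no other scaling, and CPM between 100 and 200 is given with decimals. Named genes were the 9 members, from each list the 3 most abundant in the brain regions and those called in a fasting test, up to 4 per list by adjusted p, and the 10 genes most like the members with and without region means. Gabra6 was picked from the lists after its values were seen, and 2 list genes are not reported here. The lists held other compact myelin and myelin lipid genes, oligodendrocyte transcription factors, precursors and new oligodendrocytes, peripheral myelin, astrocytes, neurons, microglia, endothelium, choroid plexus, and neurons of cerebellum, olfactory bulb, forebrain and brainstem. Of 125 list genes 124 were matched by symbol, and 26 table names that a spreadsheet had turned into dates were not used.

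Animals were taken from the replicate number within a time point. Checked on the values, libraries of the same animal in 2 regions had a mean correlation of 0.055 in their deviations from the group (102 pairs), against -0.028 for different animals (204 pairs). Deviations within a group sum to 0, so the value for different animals largely follows from the other and is no separate check. Alternatives were DESeq2 1.42.0 (its own size factors), RLE factors, no filter on low counts, all libraries, a replicate block, 0 h libraries alone, library number series or lane as a covariate, and leaving out each library in turn. Alternatives added after seeing the data were the trend without 0 h libraries, the length measure as a covariate in trends and region pairs, and region pairs without the 4 libraries that stood apart. Promoters came from RefSeq. Protein sequences were not used here. Values were tabulated with pandas 2.3.3 and numpy 2.4.6 under Python 3.11.15, and matplotlib 3.10.9 drew the plots.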

Additional observations from a re-analysis of the deposited data

Results flagged for a closer look

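The trend over hours of fasting differed between the 4 brain regions for Mobp by the test of that difference (edgeR adjusted p 0.0402), 1 of 9 members where 17% of all genes were called, and this value was 0.0926 with animal as a block, 0.205 with all libraries and 0.814 without BRN. The BRN trend of Mobp, 1.52 in the main fit, came to as little as 0.14 among 8 alternative settings.

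Mobp was found above 10 CPM in 3 of 87 retained libraries of organs outside the brain, and that limit was set after the values were seen. These were pgWAT 8 h replicate 1 with 17 CPM, psWAT 12 h replicate 3 with 432 CPM and psWAT 22 h replicate 3 with 52 CPM. The neuronal gene Snap25 had 18.7, 2621 and 102.5 CPM in the same libraries, and the source of these reads was not tested.

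The BRN libraries left out for low totals still held Mbp, with 9373 CPM in 8 h replicate 3 and 8054 CPM in 18 h replicate 1. Other members there fell outside their range in the retained BRN libraries. In 8 h replicate 3 Mog had a count of 0 and Cnp of 13. In 18 h replicate 1 Ugt8a and Opalin had a count of 0, whereas Cldn11 was high at 582 CPM.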

How the results depend on the processing

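Alternatives were run for the counts of called genes and members in region pairs, any time over 0 h, joint tests, trends and the difference of trends, and, other than for any time over 0 h, for each of the 9 members. For single time points over 0 h, counts were made by DESeq2 and by no other alternative. In BRN they came to 1 member at 8 h, 2 at 18 h, 2 at 22 h and 0 at 2 and 12 h. Alternatives were not run for the other named genes or the counts over gene lists, and single libraries were left out only within a region. The alternatives named without the 0 h libraries, with the length measure or without 4 libraries were added after seeing the data. For single genes, 1933 results kept direction and side of the threshold, 66 passed it only under an alternative, 4 changed sign and the others lost it. The cause of these shifts was not tested, other than that fewer or more libraries and genes were fitted. In BST over OB and BST over CBL all 9 members were called under all 8 alternatives. The changes of sign were Opalin in BST over BRN with 0 h libraries alone (0.66), the BRN trend of Ugt8a with all libraries (-0.01), and the BRN trends of Mbp (-0.16) and Ugt8a (-0.27) with the length measure as a covariate.

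With no filter, genes called came to 8016 in BST over OB, 6287 in BST over CBL, 7714 in BST over BRN, 8141 in BRN over OB, 7436 in CBL over OB and 9362 in BRN over CBL. With 0 h libraries alone, BST over BRN had 6 members and 3173 genes, BRN over OB had 2991 genes, and BRN over CBL had 1 member.

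In OB, the joint test called 8 members and 4388 genes with no filter, and 0 and 1178 with the lane as a covariate. Calls at any time over 0 h came to 327 genes with no filter and 1 with the lane. Trends came to 244 genes by DESeq2, 0 with the lane, 11 without the 0 h libraries and 97 with the length measure.

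In BRN, the joint test called 1577 genes by DESeq2, 3 members and 2015 genes with no filter, 7 genes with all libraries, 0 genes with the replicate block and 0 with the library number series. Calls at any time over 0 h were 3 members and 2128 genes by DESeq2, 3 and 2081 with no filter, 64 genes with all libraries, 1 member with the block and 0 genes with the series. Trends were 6 members and 2393 genes by DESeq2, 1834 genes with no filter, 6 members and 1771 genes with the block, and 0 members and 0 genes with all libraries, with the series, without the 0 h libraries and with the length measure.

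In CBL, the joint test called 6 members and 1771 genes by DESeq2, and 7 and 2397 with no filter. Calls at any time came to 242 genes with no filter. Trends came to 733 genes by DESeq2, 937 with the length measure, and 1 member and 26 genes without the 0 h libraries. In BST, the joint test called 3 members and 212 genes by DESeq2, 4 and 749 with no filter and 33 genes with the replicate block. Calls at any time came to 36 genes with no filter. Trends came to 49 genes by DESeq2, 9 with no filter, 2 with the block, 2 members and 51 genes without the 0 h libraries, and 1 member and 24 genes with the length measure. The difference of trends called 0 members with animal as a block, 0 members and 1241 genes with all libraries, and 0 and 75 without BRN.

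Leaving out each library in turn gave these lowest and highest counts, members first and all genes second. For any time over 0 h they were 0 to 1 and 6 to 178 in OB, 0 to 3 and 0 to 5057 in BRN, 0 to 0 and 2 to 1.6e+02 (rounded) in CBL, and 0 to 0 and 0 to 21 in BST. For the joint test they were 0 to 6 and 1035 to 3675 in OB, 0 to 1 and 0 to 2889 in BRN, 0 to 5 and 22 to 1674 in CBL, and 0 to 1 and 1 to 207 in BST. For trends they were 0 to 0 and 10 to 67 in OB, 0 to 7 and 0 to 3443 in BRN, 1 to 6 and 19 to 870 in CBL, and 0 to 3 and 0 to 1.2e+02 (rounded) in BST.

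The setting with all libraries gave no value of its own in OB, CBL and BST, where no library was left out, and no lane or series setting was run in CBL and BST. The BST libraries were all run on the same lane. Their label numbers form a continuous run, so the labels give no separate series there. There were 3 libraries per time point, or 2 in BRN at 8 and 18 h, and the size of difference that the tests could miss was not measured.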
